A study of Mus musculus with 4 samples.

Results

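The genes described here are *Gnat1*, *Gngt1*, *Pde6a*, *Pde6b*, *Pde6g*, *Sag*, *Cnga1*, *Cngb1* and *Grk1*, which encode proteins of the rod phototransduction cascade. They were taken by symbol, and all 9 were found by Ensembl identifier among the 14924 genes of the deposited expression table. RNA-seq was performed on whole lenses of 1-month-old mice, either *S100A4*-/- (called null below) or wild type (WT) littermates, both on a C57BL/6J background. There were 2 libraries per genotype, each from 6 to 12 pooled lenses, and all 4 were sequenced together in 1 lane. The null allele is not limited to lens cells, and mice of both sexes were used in the study, with the sexes in each pool not given in the sources used here. Null libraries held 81602367 and 74108017 reads on genes, and WT libraries held 70253985 and 68038158. The deposited value of a gene is its read number scaled by library, and a single read was worth 0.856 and 1.01 in null and 1.04 and 1.09 in WT libraries.

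The targeted gene matched the labels of all 4 libraries, since *S100a4* had 17 and 18 reads in null and 13810 and 13138 reads in WT lenses. The tissue label was compared with 10 lens genes, among them crystallin genes and the fiber membrane gene *Mip*. These held 38.8% and 38.7% of the reads in null and 39.8% and 39.5% in WT libraries. A gene was called changed here at a difference of 2-fold or more together with an adjusted p (limma, Benjamini-Hochberg over all genes tested) of 0.05 or less. Of the 10 lens genes 0 were called by limma, DESeq2 or edgeR, an unadjusted p under 0.05 was found for 1, 3 and 3 of them in turn, and their log2 fold changes ran from −0.12 (*Mip*) to 0.02 (*Gja3*).

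Rods are the photoreceptors of dim light. In the rod outer segment the light-activated pigment switches on the G protein transducin, transducin frees a cGMP phosphodiesterase from its inhibitory subunits, and the fall in cGMP closes cation channels of the plasma membrane. A kinase and an arrestin then silence the pigment, while guanylate cyclases restore cGMP. The genes of this cascade are known for their strong expression in the retina.

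Each of the 9 rod genes was higher in both null libraries than in both WT libraries, which was the case for 23.7% of the 14780 genes tested. Of the 9, 8 were called higher in null lenses, where 3.65% of all genes tested were called higher by limma. DESeq2 and edgeR called the same 8, beside 2.82% and 3.98% of the genes they tested. The study lists these 8 among retinal genes raised in the same libraries, so the count repeats its result. The gene that was not called was *Cngb1*, with a 1.94-fold difference. With no fold threshold all 9 passed, beside 5.62% of all genes. The median log2 fold change of the 9 genes was 1.92, with an SD between genes of 0.385. Over all genes tested the median was −0.005 and the SD 0.576. The values of the 9 genes summed to 7892 and 7750.2 in null and 2013 and 2105 in WT lenses, a ratio of 3.80. They held 0.0113% and 0.0103% of the reads in null and 0.00274% and 0.00283% in WT libraries, and were therefore a small part of lens RNA in both genotypes. In bulk lens RNA, a difference in the number of expressing cells and a difference in RNA per cell cannot be told apart.

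**Figure D1:**
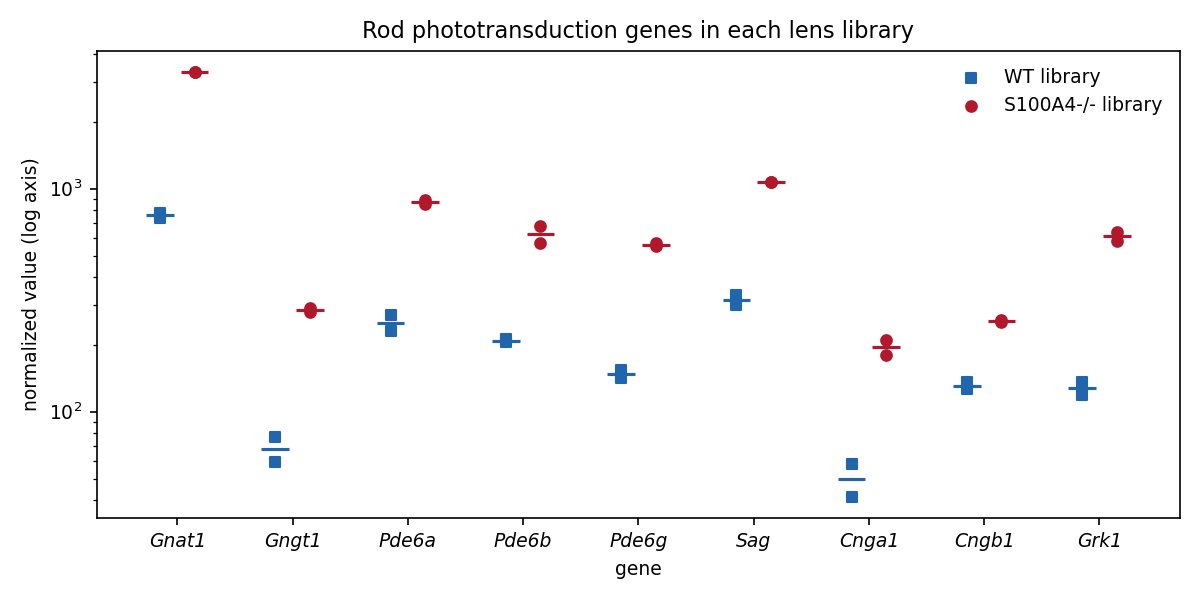
Normalized value (log axis) of the 9 rod genes in the 2 WT libraries (blue squares) and the 2 null libraries (red circles, labelled S100A4-/-), with a short line at each group mean. Every red point lies above both blue points of its gene, and the fold between the means is smallest for *Cngb1* (1.95). Values are not divided by length, so heights of different genes are not compared.

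Transducin was represented by its α subunit gene *Gnat1* and its γ subunit gene *Gngt1*. The α subunit binds GTP and activates the phosphodiesterase, and the γ subunit holds the βγ dimer at the membrane. *Gnat1* (ENSMUSG00000034837, chromosome 9, 107674474 to 107679712, minus strand, genome build GRCm38 here and below) was at 3339 and 3327 in null and 736 and 782 in WT lenses. The null replicates were almost equal and far above both WT replicates. On the log2 scale the difference was 2.13 (SE 0.06, limma adjusted p = 3.13e-25), a 4.39-fold rise, which ranked 5 by p-value among all genes tested. *Gngt1* (ENSMUSG00000029663, chromosome 6, 3993792 to 3997436, plus strand) was at 280.0 and 292 in null and 59.5 and 76.6 in WT lenses. The groups did not overlap, although WT rested on 57 and 70 reads. Its log2 fold change was 2.07 (SE 0.18, limma adjusted p = 1.24e-11), a 4.19-fold rise.

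The phosphodiesterase is built from catalytic subunits encoded by *Pde6a* and *Pde6b* and an inhibitory subunit encoded by *Pde6g*. *Pde6a* (ENSMUSG00000024575, chromosome 18, 61220315 to 61289924, plus strand) was at 855 and 894 in null and 229.7 and 270.4 in WT lenses. *Pde6b* (ENSMUSG00000029491, chromosome 5, 108388391 to 108432397, plus strand) was at 679 and 571 in null and 212 and 205 in WT lenses. *Pde6g* (ENSMUSG00000025386, chromosome 11, 120447605 to 120453500, minus strand) was at 553 and 569.6 in null and 153 and 142 in WT lenses. In none of the 3 genes did the groups overlap, and *Pde6b* had the widest spread of the 9 genes between null replicates, at an SD of 76.7 (n = 2). The log2 fold change of *Pde6a* was 1.81 (SE 0.10, limma adjusted p = 8.52e-17). That of *Pde6b* was 1.57 (SE 0.11, limma adjusted p = 1.08e-13), the smallest among the 8 called genes. That of *Pde6g* was 1.92 (SE 0.12, limma adjusted p = 2.79e-15). In linear terms *Pde6a* rose 3.50-fold, *Pde6b* 2.98-fold and *Pde6g* 3.78-fold.

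The response is shut off by the products of *Grk1*, the kinase that phosphorylates the activated pigment, and *Sag*, the rod arrestin that then binds it. *Grk1* (ENSMUSG00000031450, chromosome 8, 13405081 to 13421951, plus strand) was at 642 and 586 in null and 136 and 119 in WT lenses. This was the largest difference among the 9 genes, 4.79-fold, with a log2 fold change of 2.26 (SE 0.13, limma adjusted p = 5.32e-17). *Sag* (ENSMUSG00000056055, chromosome 1, 87803680 to 87845158, plus strand) was at 1076 and 1077 in null and 302 and 333 in WT lenses. Its null replicates nearly coincided, and it rose 3.39-fold, with a log2 fold change of 1.76 (SE 0.09, limma adjusted p = 6.17e-18).

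The rod channel is assembled from subunits encoded by *Cnga1* and *Cngb1*. *Cnga1* (ENSMUSG00000067220, chromosome 5, 72603696 to 72644275, minus strand) was at 209.8 and 180.4 in null and 58.5 and 41.6 in WT lenses, the latter from 56 and 38 reads. Its log2 fold change was 1.96 (SE 0.21, limma adjusted p = 5.30e-09), with the largest standard error of the 9 genes. In limma without a variance trend *Cnga1* was not called (adjusted p = 0.0724), whereas under the 15 other alternatives it was. *Cngb1* (ENSMUSG00000031789, chromosome 8, 95239045 to 95306585, minus strand) was at 258 and 253 in null and 126 and 136 in WT lenses. These groups did not overlap either, and the log2 fold change of 0.96 (SE 0.15, limma adjusted p = 1.18e-05) passed the adjusted p but lay just under 2-fold. It was 0.96 by DESeq2, 0.97 by edgeR, and 1.01 by limma without WT replicate 2, where *Cngb1* was called.

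None of the 9 genes shares exonic bases with another annotated gene on either strand. They lie on 7 chromosomes, and the nearest tested genes around them, 2 on each side, were examined too. Of these 36 neighbours 0 were called in either direction, beside 3.72% of all genes tested, and DESeq2 and edgeR also called 0. An unadjusted p under 0.05 was found for 9 of them by limma, 5 by DESeq2 and 9 by edgeR. Below the fold threshold 3 passed limma's adjusted p of 0.05, all of them next to *Gnat1*. With no fold threshold 1028 of all 14780 genes passed it in either direction, and nothing is read from these counts of neighbours. The median log2 fold change of the neighbours was 0.03, from −0.15 (*Ccdc137*, near *Pde6g*) to 0.93 (*Tepp*, near *Cngb1*, adjusted p = 0.394). *Sema3f*, 1788 bases from *Gnat1*, was at a mean of 544 in null and 365 in WT lenses and differed by 0.58 (SE 0.11, limma adjusted p = 1.24e-04) on the log2 scale, beside 2.13 for *Gnat1*. The other 2 were *Slc38a3* at 0.23 (SE 0.07, limma adjusted p = 0.0261) and *Rbm5* at 0.21 (SE 0.07, limma adjusted p = 0.0483). These neighbours were named after their values were seen.

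Because the 9 genes moved in the same direction, the bases before their transcription starts were searched on both strands for TAATCC, the core bound by CRX and OTX homeodomain proteins, and for TGCTGA, a core of NRL and MAF sites. RefSeq windows (GRCm38.p6) of 250 bases before the start were matched for 6 of the 9 genes, *Gngt1*, *Pde6b*, *Sag*, *Cnga1*, *Cngb1* and *Grk1*. TAATCC was found in 4 of these 6, and in 6.25% of all 32851 windows of that length. TGCTGA was found in 2 of the 6, and in 16.1% of all windows. The windows of *Sag*, *Cngb1* and *Grk1* are shown because they hold both motifs, a repeated motif and neither. They run 5′ to 3′ on the strand of the gene, overlap no annotated exon, and have matches in capitals, where GGATTA is TAATCC read on the other strand.
Sag, chr1:87803430-87803679, plus strand: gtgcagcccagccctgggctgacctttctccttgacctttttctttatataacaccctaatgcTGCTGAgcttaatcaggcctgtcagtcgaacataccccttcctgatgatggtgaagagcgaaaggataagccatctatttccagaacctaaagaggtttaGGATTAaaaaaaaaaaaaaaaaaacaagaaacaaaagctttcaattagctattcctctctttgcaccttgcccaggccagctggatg
Cngb1, chr8:95306586-95306835, minus strand: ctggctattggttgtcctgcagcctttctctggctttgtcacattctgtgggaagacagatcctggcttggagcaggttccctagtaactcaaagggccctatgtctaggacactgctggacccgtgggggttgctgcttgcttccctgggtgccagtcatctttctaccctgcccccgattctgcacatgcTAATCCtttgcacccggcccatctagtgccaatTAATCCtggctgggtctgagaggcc
Grk1, chr8:13404831-13405080, plus strand: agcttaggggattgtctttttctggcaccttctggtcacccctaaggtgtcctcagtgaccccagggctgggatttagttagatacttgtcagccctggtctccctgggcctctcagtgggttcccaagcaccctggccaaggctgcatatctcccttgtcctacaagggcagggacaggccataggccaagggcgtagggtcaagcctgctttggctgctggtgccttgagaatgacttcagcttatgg

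In *Sag*, TGCTGA began 187 bases and TAATCC 87 bases before the start. *Cngb1* held TAATCC at 58 and at 25 bases, and *Grk1* held neither motif in this window. Whether a motif goes with the size of the difference was not tested. The remaining matches were TAATCC in *Gngt1* (44 bases) and *Cnga1* (228 bases) and TGCTGA in *Pde6b* (8 bases). Distances count back from the RefSeq start, which for *Gngt1*, *Pde6b* and *Cnga1* is not the outer end of the gene given above. The windows of *Gngt1* and *Cnga1* overlap annotated exons, and the first bases after the RefSeq start of *Pde6b* matched no GENCODE transcript of the gene. No match overlapped another. Counted by gene, with a match in any of its windows, 7.21% of all genes held TAATCC and 18% held TGCTGA. Among other genes of the rod pathway TAATCC was found in 6 of 11 with a window (for *Unc119* in 1 of its 3 windows), and among cone counterparts in 1 of 4. TGCTGA was found in 3 of the same 11 and in 0 of the 4. A match of 6 letters is a description of the sequence and not a binding site.

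Levels of different genes were compared per length, in reads per kilobase of all annotated exons, scaled to the reads on genes of the library (RPKM). *Gnat1* was the highest of the 9 in both genotypes, at 15.2 ± 0.812 RPKM in null and 3.39 ± 0.107 RPKM in WT lenses (mean ± SD, n = 2). *Pde6g*, *Pde6a*, *Pde6b*, *Sag*, *Gngt1* and *Grk1* followed in this order in both genotypes. In WT lenses they ran from 0.864 RPKM for *Pde6g* to 0.197 for *Grk1*, and in null lenses from 3.34 to 0.967. The channel subunits were lowest and exchanged places, *Cngb1* at 0.189 and *Cnga1* at 0.107 RPKM in WT but at 0.377 and 0.427 in null lenses. Neighbours in this order whose replicates overlapped were *Grk1* and *Cngb1* in WT, and *Pde6b* with *Sag* and *Cnga1* with *Cngb1* in null lenses. The order depended on the length used. With the length of the principal transcript, *Gnat1* stayed first and *Sag* moved from place 5 to place 2, at 2.50 RPKM in WT lenses against 0.482 with all exons.

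The balance among the rod genes was then compared within each library, where the scaling of the library cancels. Every gene was set against *Gnat1* as a difference of log2(value + 1) in the same library, and limma was fitted to these differences over all genes. As *Gnat1* itself rose, 93.6% of all genes changed relative to it, and nothing is read from the number of rod genes that did. All differences in this fit share the spread of *Gnat1* between replicates. With most genes passing, the adjusted p-values lie close to the unadjusted ones. *Cngb1* was at −3.69 and −3.71 relative to *Gnat1* in null and at −2.53 and −2.52 in WT lenses. The groups were far apart, with a difference of −1.17 (SE 0.16, limma adjusted p = 6.04e-13). Smaller differences were found for *Pde6b* at −0.56 (SE 0.12, limma adjusted p = 8.37e-06), *Sag* at −0.37 (SE 0.11, limma adjusted p = 4.75e-04) and *Pde6a* at −0.33 (SE 0.11, limma adjusted p = 0.00441). These 4 genes rose less than *Gnat1*, but without null replicate 1 that of *Pde6a* was not called (adjusted p = 0.0709).

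For the other 4 genes the difference from *Gnat1* did not pass, which does not show that they rose alike. It was −0.07 (SE 0.18, limma adjusted p = 0.716) for *Gngt1* and 0.13 (SE 0.14, limma adjusted p = 0.369) for *Grk1*. For *Pde6g* it was −0.22 (SE 0.14, limma adjusted p = 0.116) and for *Cnga1* −0.18 (SE 0.21, limma adjusted p = 0.420). Without WT replicate 2 the difference was larger for *Pde6g* and *Cnga1*, at −0.31 and −0.46. Without WT replicate 1 it was smaller for *Pde6g* and turned for *Cnga1*. The log2 fold changes against WT were then 1.97 for *Pde6g* and 2.20 for *Cnga1*, beside 2.09 for *Gnat1*.

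**Figure D2:**
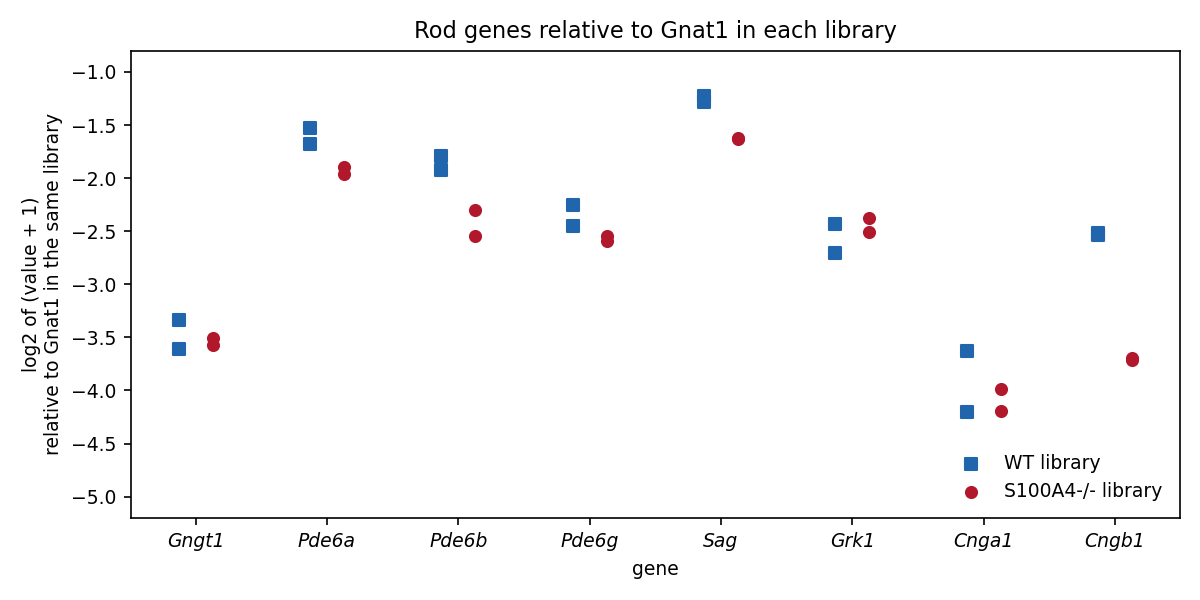
Log2 of (value + 1) of 8 rod genes relative to *Gnat1* of the same library, for the 2 WT libraries (blue squares) and the 2 null libraries (red circles, labelled S100A4-/-). The genotypes lie farthest apart for *Cngb1*, and they overlap for *Gngt1*, *Grk1* and *Cnga1*.

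Subunits of 1 complex were also set against each other, per kilobase of exon. *Gnat1* was 13.8 and 13.2 times *Gngt1* in null and 14.4 and 11.8 times in WT lenses, and the groups overlapped. Counting alone gave the WT ratios 95% intervals of 10.9 to 19.1 and 9.25 to 15.4. *Pde6a* was 1.35 and 1.68 times *Pde6b* in null and 1.16 and 1.42 times in WT lenses, which overlapped as well. Its difference relative to *Pde6b* was 0.23 (SE 0.18, limma adjusted p = 0.216), within the spread of the replicates. *Pde6g* was 1.77 and 2.17 times *Pde6b* in null and 1.57 and 1.51 times in WT lenses. Here the groups did not overlap, but the difference of 0.34 (SE 0.19, limma adjusted p = 0.0803) did not pass, in a fit where 90.4% of all genes did. Without null replicate 1 the differences from *Pde6b* were larger, at 0.39 for *Pde6a* and 0.49 for *Pde6g*. Without null replicate 2 they were smaller, with log2 fold changes against WT of 1.78 for *Pde6a*, 1.90 for *Pde6g* and 1.70 for *Pde6b*.

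In the channel the subunit ratio differed between the genotypes. *Cnga1* was 1.20 and 1.05 times *Cngb1* in null and 0.684 and 0.453 times in WT lenses. Counting intervals were 1.01 to 1.43 and 0.864 to 1.28 in null and 0.489 to 0.947 and 0.306 to 0.656 in WT lenses. The ratios of the genotypes did not overlap, but the intervals of null replicate 2 and WT replicate 1 did. Relative to *Cngb1*, *Cnga1* rose by 1.00 (SE 0.21, limma adjusted p = 4.47e-06) on the log2 scale, in a fit where 84.5% of all genes passed. The length used moves such a ratio by the same factor in every library and leaves the comparison of genotypes as it is. With principal transcripts *Cnga1* was 1.84 and 1.61 times *Cngb1* in null and 1.05 and 0.692 times in WT lenses, and *Pde6a* was below *Pde6b* in all 4 libraries, at 0.769 and 0.956 in null and 0.661 and 0.806 in WT lenses. For a single ratio, 2 libraries against 2 allow no two-sided exact permutation p under 0.333. Among the 8 pairs of rod genes the exact p was 1.00 for *Gnat1* to *Gngt1*, 0.667 for *Pde6a* to *Pde6b* and for *Grk1* to *Gnat1*, and 0.333 for the other 5.

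Of 14 other genes of the rod pathway, 10 were called higher and 0 lower in null lenses, and the median log2 fold change of the 14 was 1.96. Some of them, such as *Rcvrn* and *Pdc*, are in the study's table of raised retinal genes as well. The guanylate cyclase genes *Gucy2e* and *Gucy2f* had log2 fold changes of 2.01 and 2.42. *Gucy2e* was at 244 and 283 in null and 64.7 and 64.6 in WT lenses. *Gucy2f* was at 95.1 and 55.7 in null and 12.5 and 13.1 in WT lenses, with a wide spread between null replicates. The genes of the calcium sensors that regulate these cyclases, *Guca1a* and *Guca1b*, were at 1.98 and 1.98, and *Rcvrn*, the calcium sensor that restrains the kinase, was at 2.39. *Slc24a1*, the exchanger that carries calcium out of rods, was at 2.06, and *Aipl1*, a chaperone of the phosphodiesterase, at 1.94. The largest by limma was *Pdc*, which binds the transducin βγ dimer, at 2.45 (SE 0.14, limma adjusted p = 2.69e-16), whereas by DESeq2 and edgeR *Gucy2f* was above it, at 2.56 and 2.56 against 2.44 and 2.44. In limma without a variance trend 4 of the 14 were called, *Gucy2e*, *Guca1b*, *Rcvrn* and *Slc24a1*. The 6 calls lost there were *Pdc* (adjusted p = 0.0601), *Gucy2f* (0.0939), *Guca1a* (0.0641), *Aipl1* (0.0513), *Rgs9* (0.0736) and *Rgs9bp* (0.157).

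Genes of the complex that speeds GTP hydrolysis by transducin had smaller log2 fold changes. *Rgs9* and its membrane anchor *Rgs9bp* were called at 1.36 and 1.11, and *Rgs9bp* was at 0.87 and not called without null replicate 1. *Gnb5*, the β subunit of that complex, was not called, at 0.57 (SE 0.12, limma adjusted p = 9.69e-04). The other 3 genes that were not called are expressed in many cell types. *Gnb1*, the transducin β subunit, was at 5899 and 5874 in null and 5044 and 5263 in WT lenses and differed by 0.19 on the log2 scale. *Unc119* and *Pde6d*, which carry lipid-modified proteins, were at 0.54 and −0.10. The 4 genes not called had WT means of 254 (*Gnb5*) to 5154 (*Gnb1*), and the 10 called genes had WT means of 12.8 (*Gucy2f*) to 151 (*Rgs9bp*). This split held within this list only, since called genes of other lists had WT means above 254, such as *Gnat1* at 759 and *Glul* at 1851.

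For most of these steps cones use the product of another gene, and 8 such cone genes were measured, with few reads. Limma and edgeR called 4 of them higher, *Gnat2*, *Gngt2*, *Pde6h* and *Arr3*, and DESeq2 called 0, with an unadjusted p under 0.05 for 6 of the 8. Without null replicate 1, and likewise without null replicate 2, limma called 0 of the 8. Their median log2 fold change was 1.22. *Gnat2*, the cone transducin α subunit, had 43 and 50 reads in null and 14 and 17 in WT lenses, with a log2 fold change of 1.34 (SE 0.39, limma adjusted p = 0.0277). *Pde6h*, the cone inhibitory subunit, had 48 and 34 reads in null and 8 and 12 in WT lenses. *Arr3*, the cone arrestin, had 76 and 46 reads in null and 26 and 8 in WT lenses. Both rose in limma, *Pde6h* at 1.75 and *Arr3* at 1.76, and the WT libraries differed widely in *Arr3*. Without WT replicate 2 *Arr3* was at 0.99 and not called (adjusted p = 0.0971), and without WT replicate 1 it was at 2.52. *Gnat2* was not called without WT replicate 1 either, at 1.17 (adjusted p = 0.0943), whereas *Gnb3* was called without WT replicate 2, at 1.04. *Gngt2*, the cone γ subunit, had 26 and 19 reads in null but only 3 and 2 in WT lenses, a ratio of 7.82 with a counting interval of 3.11 to 25.2. The cone genes not called were *Gnb3* at 0.91 (SE 0.22, limma adjusted p = 0.00514), *Pde6c* at 1.11 (SE 0.40, limma adjusted p = 0.0992), and the channel genes. *Cnga3* had 2 and 10 reads in null and 1 and 2 in WT lenses. *Cngb3* had 14 and 8 reads in null and 11 and 6 in WT lenses, and its groups overlapped.

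Per length, the rod gene was above its cone counterpart in all 4 libraries in each of 7 pairs. *Gnat1* was 89.7 and 64.9 times *Gnat2* in null and 49.8 and 41.5 times in WT lenses. The genotypes did not overlap, but the counting intervals did, with 49.1 to 87.7 in null replicate 2 and 29.5 to 91.5 in WT replicate 1. *Cngb1* to *Cngb3* was likewise higher in null lenses, at 10.8 and 15.7 against 5.54 and 10.4, whereas *Gngt1* to *Gngt2* was lower, at 6.72 and 8.09 against 10.1 and 18.7. The genotypes overlapped for *Pde6b* to *Pde6c*, *Pde6g* to *Pde6h*, *Sag* to *Arr3* and *Cnga1* to *Cnga3*. For *Gngt1* to *Gngt2* the WT counting intervals of 3.30 to 50.7 and 4.98 to 157 contained both null ratios, and for *Cngb1* to *Cngb3* the intervals of the genotypes overlapped too. With 2 libraries against 2 none of these ratios could reach an exact permutation p under 0.333.

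**Figure D3:**
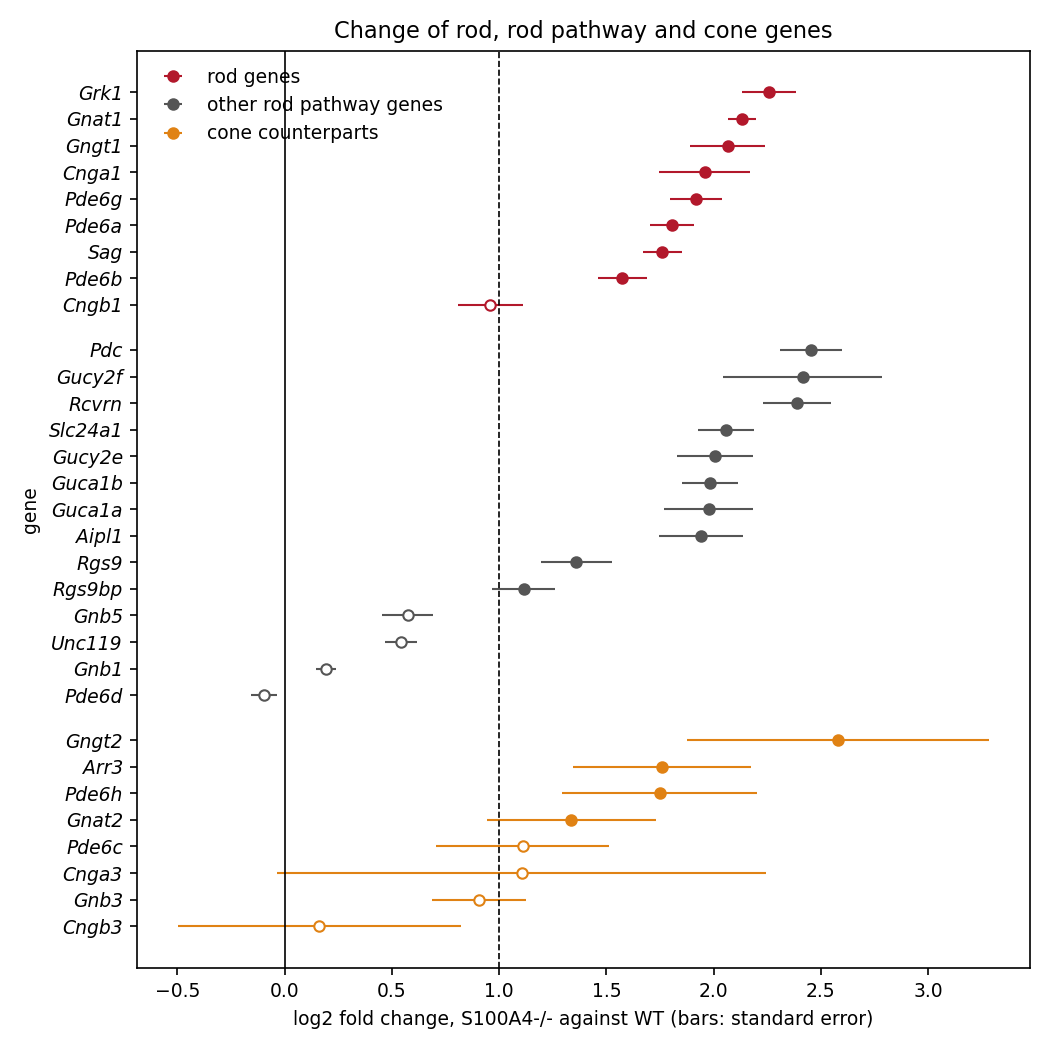
Log2 fold change of null (S100A4-/-) against WT lenses by limma, with its standard error, for the 9 rod genes (red), 14 other rod pathway genes (grey) and 8 cone counterparts (orange), sorted within each list. Filled points were called, and the dashed line marks 2-fold. Of the red points *Cngb1* is the open one, and *Cnga3* has the widest bar, at a standard error of 1.14.

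Further rod genes and markers of other eye cells were examined in the same fit, and the Müller glia, amacrine and ganglion, bipolar, pigment epithelium and pigment cell lists each held both called genes and genes that were not called by limma. Of 6 genes of rod structure and rod fate, 6 were called higher, with a median log2 fold change of 2.08, from 1.46 (*Rom1*) to 2.50 (*Rp1*). This count was also 6 with any 1 library left out. Their values summed to 5872 and 5608 in null and 1329 and 1410.2 in WT lenses, and *Rbp3* was the largest part in every library but WT replicate 2, where *Prph2* was. The ratio of 4.19 stands beside 3.80 for the 9 rod genes. All 6 genes of this list are in the study's own table of retinal genes raised in these libraries. Their count and ratio therefore add no separate support.

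Of 6 Müller glia markers 3 were called higher, *Rlbp1*, *Slc1a3* and *Glul*, with *Glul* the largest at 1.55, and 3 were called with any 1 library left out. *Dkk3* was at 0.03 and made up most of the summed values of 85186 and 86915 in null and 80483 and 80880.3 in WT lenses. Of 5 amacrine and ganglion cell markers 4 were called higher, from 1.53 (*Gad1*) to 2.92 (*Tfap2b*). The latter rested on 2 and 10 reads in WT lenses, and was at 1.95 without WT replicate 1 and 3.90 without WT replicate 2. Of these markers 1 was called without null replicate 1 and 2 without null replicate 2. The list summed to 1022 and 1065 in null and 291 and 361 in WT lenses, with *Slc6a9* the largest part, and *Slc17a6*, a marker of ganglion cells, had 2 and 11 against 2 and 0 reads. Of 6 bipolar cell markers limma called 2 higher, *Grm6* and *Pcp2*, edgeR 1 and DESeq2 0, the last with an unadjusted p under 0.05 for 4. *Pcp2* was the largest at 2.19, from 27 and 23 reads in null and 12 and 1 in WT lenses, and *Cabp5* the lowest at −0.29. Without WT replicate 1 *Pcp2* was at 3.53, and without WT replicate 2 at 0.84 and not called. With 1 library left out limma called 0 (without null replicate 1) to 2 of the bipolar markers. The bipolar list summed to 2394 and 2180.0 in null and 1709 and 1612 in WT lenses, of which *Nyx* was the largest part in WT and *Trpm1* in null lenses.

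Of 5 markers of the retinal pigment epithelium limma called 2 higher, *Lrat* at 1.29 and *Rdh5* at 1.05, and DESeq2 called 1. Without null replicate 1, and likewise without null replicate 2, limma called 0 of the 5, and without WT replicate 2 *Lrat* was at 0.98 and *Ttr* was called in its place. The lowest was *Rgr* at 0.40. *Rpe65*, the isomerase that defines this epithelium, was not called, at 0.77 (SE 0.28, limma adjusted p = 0.108). The list summed to 851 and 808 in null and 458 and 500.4 in WT lenses, of which *Ttr* was the largest part, at 0.89. Of 6 pigment cell markers 5 were called higher, up to 3.92 by limma for *Dct*, whereas *Oca2* was at 0.00. With 1 library left out, 3 (without null replicate 2) to 5 of them were called. The list summed to 1672 and 1737 in null and 682 and 754 in WT lenses, and *Oca2* was the largest part in WT and *Dct* in null lenses. The part of these cell types in the rod result was not tested.

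**Figure D4:**
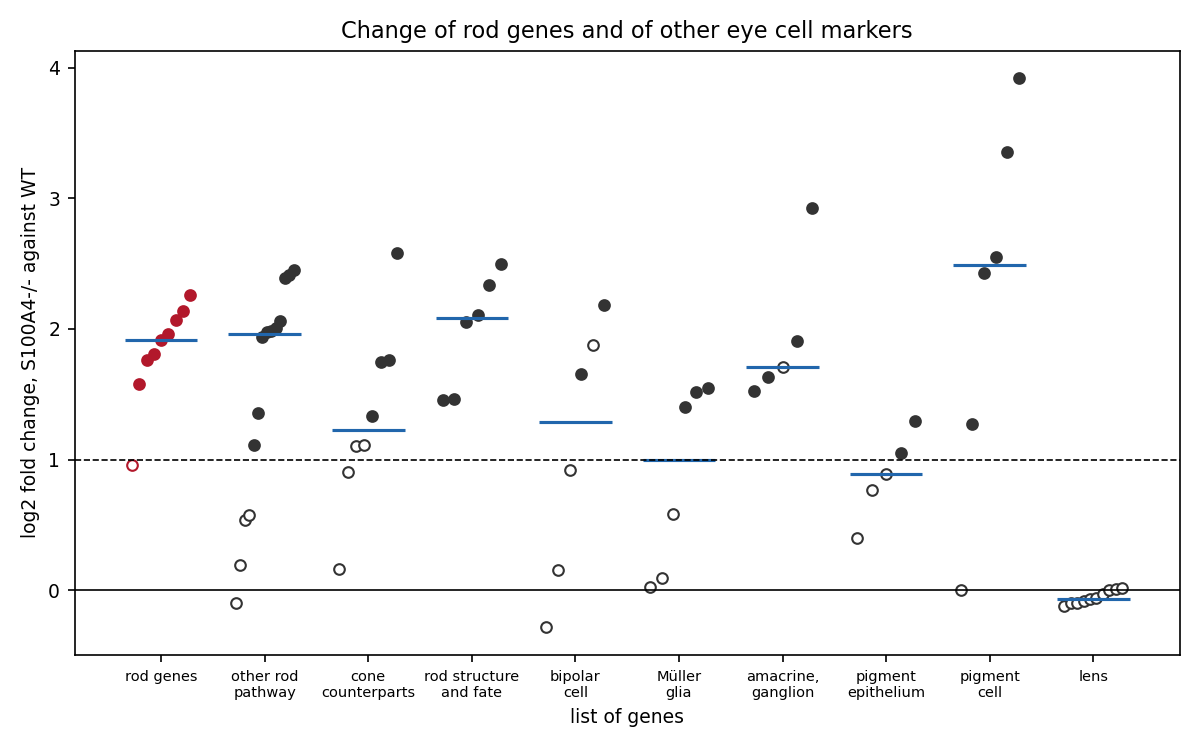
Log2 fold change of null (S100A4-/-) against WT lenses for the 9 rod genes (red) and the genes of the other lists (black), with the median of each list as a blue line. Filled points were called, and the dashed line marks 2-fold. The medians run from −0.06 for the lens list to 2.49 for the pigment cell list, with the rod genes at 1.92.

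Lastly, the genes with the most similar profile over the 4 libraries were sought. Likeness was the Euclidean distance between the log2(value + 1) of a gene, centred on its mean, and the mean centred profile of the 9 rod genes, over genes averaging 50 or more. The nearest 5 other genes were *Rhoj* at 0.105, *Slc12a5* at 0.111, *Syp* at 0.125, *Boc* at 0.138 and *Flt1* at 0.141. *Rhoj*, the nearest, was at 304 and 269 in null and 77.3 and 76.6 in WT lenses. Of the rod genes themselves *Sag* was nearest to their common profile, at 0.119, and *Cngb1* farthest, at 0.870, beside a median of 1.85 over all genes compared. Each rod gene is part of that profile, so its distance is short by construction and not comparable with this median. Since the 4 libraries form only 2 groups, this distance reflects mostly the size of the difference between them.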

How the data were processed

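RNA of pooled lenses was sequenced as stranded, single-end mRNA libraries. Reads were trimmed (Trim Galore), aligned to GRCm38v73 (STAR), counted per gene when mapping uniquely (HTSeq) and normalized (DESeq2) by the authors, with tool versions not given in the sources used here. The deposited signal values are these counts over a size factor per library, and every gene had 10 or more reads in some library. In all libraries 100% of values were whole multiples (tolerance 0.1 read) of the worth of 1 read, so reads were recovered by division. Count tests on the recovered reads called 427 genes (DESeq2) and 571 genes (edgeR), against 550 with limma. There were 0 columns without a sample. Identifiers of 14782 genes matched GENCODE M21.

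Genotypes were compared with limma (lmFit, eBayes with a variance trend) on log2(value + 1), which understates fold changes of low genes. The fit covered 14780 genes that reached 10 in some library, and the thresholds were those of the study. Ratios to *Gnat1*, *Pde6b* or *Cngb1* were fitted alike, without a fold threshold. Counting intervals are exact (Clopper-Pearson, 95%), and a floor of 3 reads (2.57 to 3.28 in value) was used. Both cover counting error only. The libraries are described as biological replicates, each a pool. With 2 pools per genotype, limma p-values rest largely on variance borrowed from genes of similar level. They do not measure only the spread of a gene between its pools. The genes and lists were chosen with earlier results of these data known. Named were the 9 rod genes, *S100a4*, all genes of the rod pathway and cone lists, the gene with the highest value and the most and least changed gene of the other lists, and the 5 genes nearest in profile. Other markers were named after their values were seen. *Vsx1*, *Pou4f2* and *Best1* were listed but not analysed here. The fits were tested on simulated data. Alternatives were pseudocounts of 0.5 and 5, no filter or a mean of 50, TMM, equal totals, quantile normalization, no variance trend, no fold threshold, a replicate block, DESeq2, edgeR and each library left out. The principal transcript length was added after the data were seen. Software was scipy 1.17.1, R 4.3.3, numpy 2.4.6, limma 3.58.1, matplotlib 3.10.9, edgeR 4.0.16, Python 3.11.15, DESeq2 1.42.0 and pandas 2.3.3.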

Additional observations from a re-analysis of the deposited data

How the results depend on the processing

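All 9 rod genes were higher in null lenses under every alternative, and 141 of their 144 alternative values kept their side of the threshold. The exceptions were *Cnga1* without the variance trend and *Cngb1* without WT replicate 2 or with no fold threshold. Without the variance trend the limma adjusted p of the 9 genes ran from 0.0301 to 0.0724, far above the main values. Their median log2 fold change was 1.88 with a pseudocount of 5, 1.95 with equal totals, 1.82 with quantile normalization, and 1.85 to 1.90 with each library left out, where the lone library is assumed to vary like the other genotype. Of the 14 other rod pathway genes 4 were called without the variance trend. Of the 8 cone genes 1 was called without the variance trend, 0 with quantile normalization or DESeq2, 0 with a mean of at least 50, a filter that left only *Gnb3* of the 8 to be tested and removed the 4 called genes, and 0 to 4 with each library left out, the 0 being without either null replicate. Apart from that filter, the cause was not tested. *Cngb3* went to −0.29 with quantile normalization and ran from −0.20 to 0.52 with each library left out. In the same way the differences from *Gnat1* ran from −0.46 to 0.11 for *Cnga1*, −0.21 to 0.068 for *Gngt1* and −0.0096 to 0.26 for *Grk1*. Of 110 alternative values of the differences between rod genes, 101 kept their side of the threshold. A call was lost in 1 and gained in 5, and 3 changed sign. Over all genes, limma called 539 higher and 11 lower. This became 174 higher and 7 lower without the variance trend, 281 higher and 6 lower with a mean of at least 50, 377 higher and 23 lower with quantile normalization, 831 higher and 197 lower with no fold threshold, 275 higher and 6 lower without null replicate 1 and 304 higher and 9 lower without null replicate 2.

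No label links libraries with the same replicate number beyond that number, and the correlation of their deviations over genes was 0.0119. Such a correlation cannot exclude a shared batch that moved few genes, and a batch was not tested. With the replicate number as a block 591 genes were called in place of 550, the rod count stayed at 8, and *Pde6g* passed relative to *Pde6b* (adjusted p = 0.0498). Standard errors ran from 0.06 (*Gnat1*) to 0.21 (*Cnga1*) among the rod genes and from 0.22 (*Gnb3*) to 1.14 (*Cnga3*) among the cone genes.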
